A study of Mus musculus with 4 samples.

Results

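Complement and acute-phase genes were read by RNA-seq in colonies of mouse blood progenitors with and without induction of the leukaemia fusion MLL-ENL. The genes are C3, Cfb, Cfp, C1qa, C1qb, C1qc, C3ar1, C5ar1, Saa3 and Hp, 10 in all, and they were chosen by name. Of these, 9 had a row among the 14323 genes of the table, and 7 passed the expression filter that 11370 genes passed, a mean of at least 1 normalized count. C1qa had no row and is not analysed here, and C1qb and C1qc lay below the filter.

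Short-term haematopoietic stem cells (ST-HSCs) and MPP2 cells, a multipotent progenitor class biased to the megakaryocyte and erythroid lines, carried the strain label C57BL/6. Per the labels, 100 cells were seeded in 1% methylcellulose and colonies grew over 5 to 7 days. They were fed with SCF at 25 ng/ml and IL-6, IL-3 and GM-CSF at 10 ng/ml each, and RNA was taken from the colony cells. The cultures held 0.05 µM 4-hydroxytamoxifen (4OHT), whose samples are labelled as conditionally expressing MLL-ENL, or the same amount of ethanol, labelled control. The labels do not describe the construct or the cells that express it. Ethanol cultures lack both the drug and the induced fusion, so the effects of these cannot be told apart. The 4 groups, ST-HSC with ethanol, ST-HSC with 4OHT, MPP2 with ethanol and MPP2 with 4OHT, had 1 library each, and 4 values below are always in this order.

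Complement is a set of proteins that tag microbes and dying cells for uptake. It can start from C1q bound to antibody or cell debris, from lectins, or by an alternative route in which factor B joins C3, and every route converges on the cleavage of C3. The fragments split off C3 and C5 act on receptors of myeloid cells. Acute-phase proteins are secreted in inflammation, mostly by the liver in response to IL-6 and IL-1, and macrophages and neutrophils make some of them too.

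Depth was 12907412 to 14317891 reads per library, and 1 read was worth 0.0695 to 0.0802 normalized counts. Levels are the authors' normalized counts, and log2 differences were taken after adding 0.5. With 1 library per group a difference between a pair of libraries has no replicate check. Its 95% interval covers counting error only, and a gene is called 2-fold higher or lower as a description. The one tested 4OHT effect is that common to ST-HSC and MPP2 colonies, by limma on an additive model whose single residual degree of freedom is set by how far both cell types differ in their 4OHT effect. That test called 5 genes (0.044%) higher and 1 lower (0.0088%) with 4OHT at an adjusted p under 0.05, against 281 and 211 by edgeR on the recovered reads, so its calls depend strongly on the tool.

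The colonies held myeloid transcripts. Summed normalized counts of 10 monocyte and macrophage markers were 1158, 1441, 1214 and 1561, led by Ly6c2, Adgre1 and Csf1r, and those of 9 neutrophil markers were 30674, 22590, 42912 and 41697. The 14 interferon-response genes summed to 136, 317, 182 and 301, higher in both 4OHT libraries. Hepatocyte markers were at or near 0, since 6 of 7 had no row and Hnf4a had 0 to 5 reads. Of 6 lymphoid markers only Cd79a had a row, at 0 to 2 reads. Of markers that define the sorted cells, chosen after values were seen, Kit stood at 76.4 to 92.9. Slamf1 (CD150), which marks MPP2 cells, had 0 reads in both ST-HSC libraries and 44 and 31 in the MPP2 libraries. Cd48 was higher in MPP2 colonies in ethanol but nearly level with 4OHT, at 8.55, 11.1, 21.1 and 11.9 normalized counts. Cd34, at 11.96, 27.0, 24.7 and 20.9, was higher in MPP2 colonies in ethanol and lower with 4OHT. Ly6a was lower in MPP2 colonies under both treatments, at 27.8, 61.4, 24.7 and 32.0. Flt3 lay below the filter. In such bulk samples fewer cells of a type and less RNA per cell cannot be told apart.

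The promoters of 3 members are shown for their different courses with 4OHT: Saa3, higher by nearly the same ratio in both cell types, C3, the most abundant member, and C3ar1, which went opposite ways. Each runs 5′ to 3′ on the gene's own strand (minus), from 250 bases before to 50 after the RefSeq start site on GRCm38.p6: chr7:46715627-46715926 for Saa3, chr17:57228087-57228386 for C3 and chr6:122856108-122856407 for C3ar1. Capitals mark matches to any of 7 motifs described next.
Saa3: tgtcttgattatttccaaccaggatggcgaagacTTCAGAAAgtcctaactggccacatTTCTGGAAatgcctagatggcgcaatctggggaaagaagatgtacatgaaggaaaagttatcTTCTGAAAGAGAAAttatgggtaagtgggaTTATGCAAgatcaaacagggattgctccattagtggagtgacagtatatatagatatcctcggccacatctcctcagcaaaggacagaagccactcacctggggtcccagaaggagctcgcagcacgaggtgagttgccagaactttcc
C3: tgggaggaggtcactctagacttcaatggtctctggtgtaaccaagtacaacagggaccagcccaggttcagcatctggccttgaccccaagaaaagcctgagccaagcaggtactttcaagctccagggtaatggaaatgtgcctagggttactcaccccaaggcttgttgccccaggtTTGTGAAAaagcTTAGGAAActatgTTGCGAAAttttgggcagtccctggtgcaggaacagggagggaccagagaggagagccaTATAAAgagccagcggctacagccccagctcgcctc
C3ar1: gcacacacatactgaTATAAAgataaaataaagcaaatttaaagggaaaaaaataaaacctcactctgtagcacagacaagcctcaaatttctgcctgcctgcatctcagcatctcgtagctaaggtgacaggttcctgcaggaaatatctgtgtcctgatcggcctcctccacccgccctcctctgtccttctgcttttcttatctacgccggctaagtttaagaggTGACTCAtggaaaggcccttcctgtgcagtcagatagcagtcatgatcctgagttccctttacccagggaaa

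The motifs were searched on both strands in the 7 members with a promoter entry and in 32851 promoters of the same length. They were the C/EBP motif TTNNGNAA (present in 40.7% of all promoters), the NF-kB motif (8.46%), the interferon response element (3.44%), the gamma-activated site TTCNNNGAA (8.30%), the AP-1 motif TGANTCA (7.81%), the PU.1 motif GAGGAAGT (3.20%) and the letters TATAAA (13.6%). Saa3 held 4 C/EBP matches, a number reached by 0.852% of promoters, and 1 interferon response element that overlaps the third of them. C3 held 3 C/EBP matches (3 or more in 3.60% of promoters). C3ar1 held an AP-1 match 22 bases before the start site. The letters TATAAA lay 14 bases after the start site in C3 and 235 before it in C3ar1. Cfp and C1qb held none of these letters, C5ar1 held 1 C/EBP match, and C1qc held 1 each of the C/EBP, NF-kB and PU.1 motifs. A match is a description of the letters and not evidence of binding.

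Seen against all genes, 3 of the 7 measured members (Cfb, C3ar1 and Saa3) were at least 2-fold higher with 4OHT in ST-HSC colonies, where 2.1% of all genes were. In MPP2 colonies 3 of 7 (Cfb, Saa3 and Hp) were, against 1.32% of all genes. Cfb and Saa3 were in both, as were 0.756% of all genes. No member was 2-fold lower in either, where 0.545% and 1.7% of all genes were. Between cell types, 2 of 7 (Cfb and C3ar1) were at least 2-fold higher in MPP2 than in ST-HSC colonies in ethanol, where 6.27% of all genes were, and 2 of 7 (C3 and C5ar1) with 4OHT, where 5.39% were. C3 lay at the edge of 2-fold there, at log2 1.01, and fell short with total reads (0.93) and with the GC trend removed (0.97). The members' median log2 difference with 4OHT was 0.52 in ST-HSC and 0.69 in MPP2 colonies, beside 0.00 for all genes in both. The genes were named with earlier results of these data known, so these counts describe them only.

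**Figure D1:**
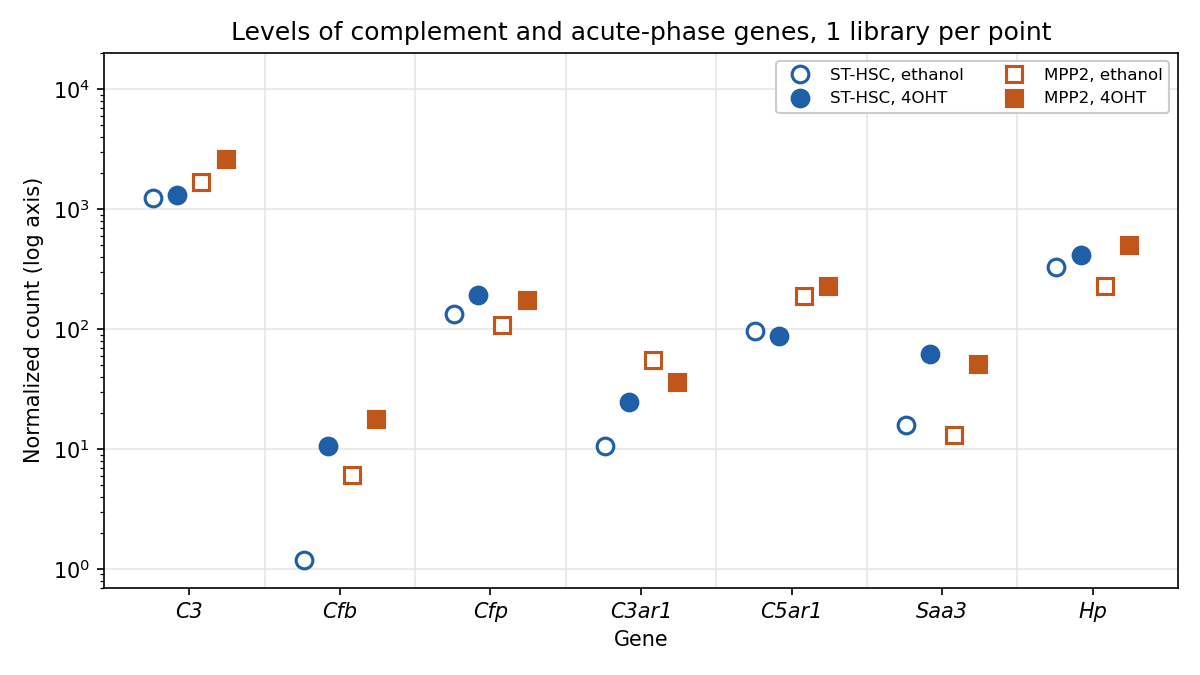
Normalized counts (log axis) of the 7 members that passed the filter, with 1 point per library, open for ethanol and filled for 4OHT, circles for ST-HSC and squares for MPP2 colonies. C3 lies highest, at 1238 to 2620, and Cfb lowest, and for Saa3 both 4OHT points lie above both ethanol points.

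C3, the central complement protein, was among the genes with the highest normalized counts in these colonies. It stood at 1238, 1301, 1686 and 2620 normalized counts, which was 0.124% of reads in the ST-HSC ethanol library and 0.253% of reads in the MPP2 4OHT library. By mean normalized count, which is not corrected for length, it ranked 34 of 14323 genes. Per kilobase of transcript it ranked 258 of the 13739 genes with a known length. The MPP2 4OHT library stood apart from the other 3. Residual ribosomal RNA, read as Rn45s and chosen after values were seen, was also highest there, at 67223, 69645, 47618 and 76555, and its part in the level of C3 was not tested. With 4OHT C3 was 1.05-fold its ethanol level in ST-HSC colonies (1.03 to 1.07) and 1.55-fold in MPP2 colonies (1.53 to 1.58). The shared 4OHT effect was 0.35 on the log2 scale (SE 0.18) and did not pass (limma adjusted p = 0.46, 0.273 to 0.55 over all settings tried). MPP2 colonies had 1.36-fold the ST-HSC level in ethanol and 2.01-fold with 4OHT. The shared cell type effect of C3 was log2 0.73 (SE 0.18), which just missed the threshold (limma adjusted p = 0.0562). It passed in 5 of 11 settings, with adjusted p from 2.16e-05 to 0.0973.

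Cfb encodes factor B, which supplies the protease of the alternative route, and Cfp encodes properdin, which steadies that protease on surfaces. Cfb was scarce, at 1.18, 10.6, 6.06 and 17.7 normalized counts from 17, 148, 84 and 221 reads. Both 4OHT libraries lay above both ethanol libraries. Its 4OHT ratio was 9.0 in ST-HSC (5.43 to 15.9) and 2.93 in MPP2 colonies (2.27 to 3.81). The shared effect, log2 2.10 (SE 0.31), missed the threshold (limma adjusted p = 0.0921) and passed in 5 of 11 settings, with adjusted p from 0.000255 to 0.256. MPP2 colonies held 5.13-fold the ST-HSC level of Cfb in ethanol (3.02 to 9.21) and 1.67-fold with 4OHT (1.35 to 2.07). The shared cell type effect of Cfb, log2 1.34 (SE 0.31), missed the threshold narrowly (limma adjusted p = 0.0502, 0.00149 to 0.0914 over all settings, passing in 5 of 11).

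All members are protein-coding genes on the minus strand of GRCm38. C3 lies at chr17:57203970-57228136, Cfp at chrX:20925454-20931555, C3ar1 at chr6:122847138-122856161, C5ar1 at chr7:16246743-16259540, Saa3 at chr7:46711998-46715700 and Hp at chr8:109575128-109579172. Cfb lies at chr17:34856374-34862518, 85 bases from the next complement gene, C2. Of its 31-base words 75.5% also occur in Gm20547, a gene model that runs on into C2. Gm20547 had no row, and whether it took reads from Cfb is not known. The value of Cfb alone is therefore uncertain. C2, the matching protease of the classical route, had 3, 1, 1 and 1 reads, at or under the floor of 3 reads. The 17 to 221 reads on Cfb were thus not matched by reads on C2. C2 itself shares 40.2% of its words with Gm20547, so its low reads do not show where shared reads were counted.

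Cfp stood at 134, 193, 108 and 175 normalized counts. Both 4OHT libraries were above both ethanol libraries here too, by smaller ratios than for Cfb. The ratios were 1.44 in ST-HSC (1.36 to 1.53) and 1.62 in MPP2 colonies (1.52 to 1.73). The shared effect was log2 0.61 (SE 0.13). It did not pass by limma (adjusted p = 0.165) but passed in 3 of 11 settings, namely limma with trend, edgeR (adjusted p = 0.00966) and DESeq2 (adjusted p = 0.00695), over a range of 0.00355 to 0.285. Cfp was lower in MPP2 than in ST-HSC colonies under both treatments, at 0.804-fold in ethanol and 0.905-fold with 4OHT, and this cell type effect did not pass (log2 -0.23, limma adjusted p = 0.261, 0.116 to 0.489 over all settings).

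C1qb and C1qc encode chains of C1q, the recognition protein of the classical route, which tissue macrophages make in quantity. They lie side by side at chr4:136880129-136886187 and chr4:136889804-136893065, with 3616 bases between them. C1qb had 2, 3, 0 and 4 reads and C1qc had 1, 9, 0 and 3. Summed, they had 3 and 0 reads in the ethanol libraries and 12 and 7 in the 4OHT libraries. For C1qc in ST-HSC colonies, 9 reads against 1 give a ratio of 9.30 with a counting interval of 1.29 to 408, which rests on a single ethanol read, under the floor of 3 reads. No other fold is given for either gene, since their reads lie at or near that floor. Csf1r, a macrophage marker, had 751 to 1803 reads in the same libraries.

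C3ar1, the receptor for the C3 fragment C3a, went opposite ways. It stood at 10.6, 24.9, 55.4 and 35.9 normalized counts. The ethanol libraries of both cell types were the lowest and the highest, and both 4OHT libraries lay between them. Its 4OHT ratio was 2.35 in ST-HSC (1.94 to 2.87) and 0.649 in MPP2 colonies (0.576 to 0.730). The log2 difference in MPP2 minus that in ST-HSC colonies was -1.81, which could not be tested with 1 library per group. The shared 4OHT effect was 0.29 (SE 0.43, limma adjusted p = 0.808, 0.66 to 1.00 over all settings). C3ar1 was 5.24-fold higher in MPP2 than in ST-HSC colonies in ethanol (4.40 to 6.28) and 1.45-fold with 4OHT (1.25 to 1.67). That cell type effect, log2 1.43 (SE 0.43), had a limma adjusted p of 0.0815 and passed in 4 of 11 settings (0.00108 to 0.273). Markers of other cell types moved across the same libraries. Those of mast cells and basophils summed to 149, 82.4, 1525 and 525. In ethanol 8 of 8 were at least 2-fold higher in MPP2 than in ST-HSC colonies, where 6.27% of all genes were. With 4OHT 6 of 8 were at least 2-fold lower in MPP2 colonies, where 1.7% of all genes were. In ST-HSC colonies, where C3ar1 was higher with 4OHT, 4 of 8 were at least 2-fold lower, as were 0.545% of all genes. Eosinophil markers summed to 36.8, 35.1, 271 and 144. The part of these lists in the level of C3ar1 was not tested.

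C5ar1, the receptor through which the C5 fragment C5a draws neutrophils, rose with cell type and was higher in MPP2 colonies. It stood at 95.9, 87.7, 187 and 228 normalized counts, with both MPP2 libraries above both ST-HSC libraries. MPP2 colonies had 1.95-fold the ST-HSC level in ethanol (1.82 to 2.08) and 2.60-fold with 4OHT (2.43 to 2.79). The shared cell type effect, log2 1.17 (SE 0.16), passed (limma adjusted p = 0.0195) and did so in 11 of 11 settings (5.38e-11 to 0.0474). It was the only member of the 7 called on cell type by limma, where 9.88% of all genes were called higher and 5.31% lower in MPP2 colonies (1123 and 604 genes, against 676 and 167 with the GC trend removed). With 4OHT it was 0.915-fold its ethanol level in ST-HSC (0.847 to 0.989) and 1.22-fold in MPP2 colonies (1.16 to 1.29), and the shared 4OHT effect was log2 0.08 (limma adjusted p = 0.86, 0.784 to 1.00 over all settings). Of 9 neutrophil markers, limma called 5 higher and 2 lower in MPP2 colonies (median log2 0.53 in ethanol and 0.96 with 4OHT), and their part in the result was not tested.

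Saa3, a serum amyloid A protein made outside the liver by macrophages among others, showed nearly the same 4OHT ratio in both cell types. It stood at 15.99, 62.2, 13.1 and 51.5 normalized counts, and both 4OHT libraries lay above both ethanol libraries. The ratio was 3.89 in ST-HSC (3.36 to 4.51) and 3.94 in MPP2 colonies (3.34 to 4.68). The log2 difference between these ratios was 0.02, with a counting interval of -0.30 to 0.34. Saa3 rose by log2 1.93 (SE 0.13) in the shared test and was among the 5 genes called higher (limma adjusted p = 0.0477). The call held in 6 of 11 settings and was lost with an added constant of 0.1, without the filter, with DESeq2 size factors, with total reads and with the GC trend removed, with adjusted p from 2.22e-14 to 0.201. By cell type Saa3 differed little, at 0.817-fold in MPP2 against ST-HSC colonies in ethanol (0.668 to 0.996) and 0.829-fold with 4OHT (0.747 to 0.919), and the shared effect of log2 -0.28 did not pass (limma adjusted p = 0.178, 0.126 to 0.58 over all settings).

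Hp, haptoglobin, which binds free haemoglobin and is stored in neutrophil granules as well as secreted by the liver, stood at 327, 413, 228 and 507 normalized counts. The MPP2 libraries were the lowest and the highest, with both ST-HSC libraries between, the same libraries in which Rn45s was lowest and highest. Its 4OHT ratio was 1.26 in ST-HSC (1.21 to 1.31) and 2.22 in MPP2 colonies (2.13 to 2.32). With the GC trend removed the log2 difference in MPP2 colonies was 0.95 in place of 1.15, below 2-fold. The shared effect, log2 0.74 (SE 0.22), did not pass by limma (adjusted p = 0.255) and passed in 2 of 11 settings, limma with trend (adjusted p = 0.00848) and edgeR (adjusted p = 0.0287), over a range up to 0.829. In ethanol Hp was lower in MPP2 than in ST-HSC colonies (0.698-fold, 0.667 to 0.730) and with 4OHT higher (1.23-fold, 1.18 to 1.27), so its cell type effect was near 0 (log2 -0.11, limma adjusted p = 0.741, 0.604 to 0.944).

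**Figure D2:**
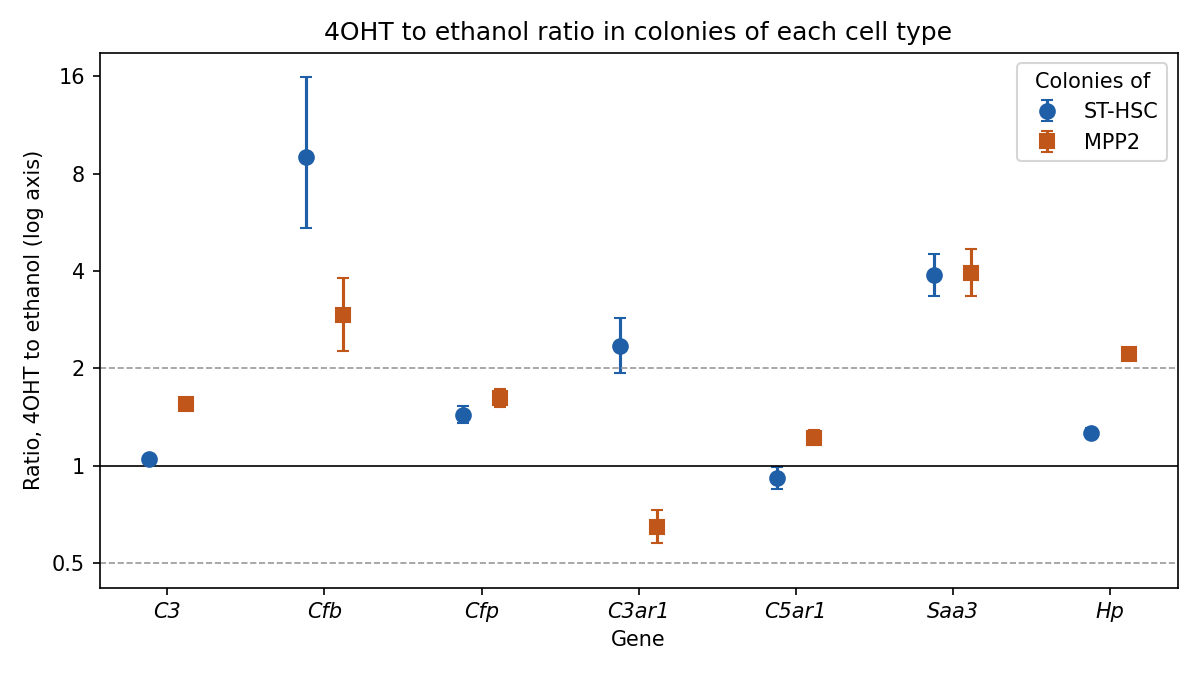
Ratio of the 4OHT to the ethanol library (log axis) for the 7 measured members, circles for ST-HSC and squares for MPP2 colonies, with 95% counting intervals as bars and dashed lines at 2-fold. Cfb and Saa3 lie above 2-fold in both cell types, and the intervals of C3ar1 and C5ar1 lie on opposite sides of 1.

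Monocyte and macrophage markers stood higher with 4OHT, 10 of 10 above 0 in ST-HSC (median log2 0.85) and 9 of 10 in MPP2 colonies (0.74). Limma called 0 of them (7 at an unadjusted p under 0.05), edgeR 6 and DESeq2 3. All 14 interferon-response genes were above 0 in both cell types (median log2 2.94 and 1.21). Of these limma called 0 (12 at an unadjusted p under 0.05), edgeR 11 and DESeq2 7. Of all 11370 genes edgeR called 281 higher and DESeq2 117, and limma gave 1615 an unadjusted p under 0.05 in either direction. Both lists were thus higher in the libraries in which Cfb, Cfp and Saa3 were higher. Neutrophil markers had a median log2 difference of -0.40 in ST-HSC colonies, and of 0.05 in those of MPP2. The part of each of these in the members' differences was not tested.

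Set on a per-length scale, the members fell into tiers. Mean normalized counts per kilobase of the transcript numbered 201 in GENCODE were 333 for C3, 274 for Hp, 93.4 for Cfp, 64.3 for Saa3, 60.4 for C5ar1, 7.36 for C3ar1 and 3.25 for Cfb. Over the 4 libraries C3 ran from 241 to 510 and Hp from 170 to 377, so these neighbours overlap. Cfp (66.1 to 118), Saa3 (23.5 to 112) and C5ar1 (35.4 to 92.1) overlap as well. With these transcripts C3ar1 (2.46 to 12.9) and Cfb (0.432 to 6.48) lay below all of these and overlap each other. For Saa3 the level depends on the transcript used, since the longest one (2200 bases against 555) gives a mean of 16.2 per kilobase. On that length the range of Saa3 reaches into those of C3ar1 and Cfb.

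The other complement genes went both ways with 4OHT. Of 48 listed, 22 had a row and 14 passed the filter. Of those 14, 1 was at least 2-fold higher and 1 lower with 4OHT in MPP2 colonies, where 1.32% and 1.7% of all genes were. In ST-HSC colonies 0 were past 2-fold, where 2.1% of all genes were higher and 0.545% lower. The median log2 difference was 0.04 in MPP2 and 0.00 in ST-HSC colonies. None of the 14 passed the shared 4OHT test by limma, where 3 had an unadjusted p under 0.05. EdgeR called Itgax and Lrp1 higher and Cd55 lower, and DESeq2 called Itgax and Lrp1 higher. Of all 11370 genes edgeR called 281 higher and 211 lower, and DESeq2 117 and 41. Itgax, a chain of complement receptor CR4 named after its values were seen, stood at 15.99, 32.1, 18.5 and 33.7 normalized counts, higher in both 4OHT libraries (limma adjusted p = 0.0921). Of the initiating genes, Fcnb, a ficolin of neutrophil granules that starts the lectin route, stood at 132, 75.7, 122 and 129 normalized counts (log2 -0.80 in ST-HSC and 0.08 in MPP2 colonies). The scavenger collectin Colec12 stood at 11.3 to 18.8. C1ra, a protease of the C1 complex that shares 56.9% of its words with C1rb, was at 0.647 to 1.12. Of the terminal genes, which form the membrane pore, only Hc (C5) and C8g had a row, and neither exceeded 1.25 normalized counts in any library.

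Of 15 regulators 5 had a row, and of 9 receptors 8 did. Cd55, which dismantles the C3-cleaving enzyme on the cell's own surface, stood at 5.98, 3.59, 25.98 and 10.6 normalized counts, lower with 4OHT in both cell types, with ratios of 0.601 (0.415 to 0.861) for ST-HSC and 0.408 (0.331 to 0.499) for MPP2 colonies. Its limma adjusted p was 0.133 (edgeR adjusted p = 0.0147). Clu, clusterin, stood at 34.6, 27.7, 25.0 and 38.7. Cr1l (Crry), another surface regulator, had 32.8 to 46.8. C1qbp, a largely mitochondrial protein that also binds C1q, had 157, 191, 92.8 and 92.7. Lrp1, a large uptake receptor that can bind C1q and haemopexin among others, had 158, 268, 170 and 391 (log2 0.76 and 1.20, limma adjusted p = 0.106). Itgam and Itgb2, the chains of complement receptor CR3, stood at 550 to 1201 and 602 to 1220. Both passed the shared cell type test (log2 0.99 and 0.82 higher in MPP2 colonies, limma adjusted p = 0.0219 and 0.0362), but Itgam shares 67.2% of its words with the gene model Gm49368. Calr, calreticulin, which serves as a C1q receptor on cell surfaces, was the highest of the list at 1456 to 2259. On cell type limma called 7 of the 14 higher in MPP2 colonies and 2, C1qbp and Calr, lower, where 9.88% and 5.31% of all genes were called.

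Among 33 other acute-phase genes, 12 had a row and 9 passed the filter. In ST-HSC colonies 2 were at least 2-fold higher with 4OHT and 0 lower, where 2.1% and 0.545% of all genes were. In MPP2 colonies 0 were past 2-fold either way, where 1.32% of all genes were higher and 1.7% lower. The median log2 differences were 0.07 in ST-HSC and -0.04 in MPP2 colonies. On 4OHT limma called 0 (2 at an unadjusted p under 0.05), edgeR 1 lower (211 of all 11370 genes) and DESeq2 0. One of the pair past 2-fold was Il1rn, the IL-1 receptor antagonist, at 44.1 and 89.2 normalized counts in ST-HSC (ratio 2.02, 1.84 to 2.23) and 259 and 227 in MPP2 colonies (0.876, 0.833 to 0.920). The other, Serpina3f, a serine protease inhibitor named after its values were seen, had 1.88 and 4.60 in ST-HSC colonies. Lcn2, lipocalin 2, which withholds iron from bacteria, stood at 853, 742, 1587 and 2136. It passed the shared cell type test (log2 1.21, limma adjusted p = 0.0259) and not the 4OHT test (log2 0.11, adjusted p = 0.834). The metallothionein gene Mt1 was level at 263 to 276.

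Genes that induce acute-phase transcription were mostly within 2-fold. Of 18, 17 were measured. With 4OHT 1 was at least 2-fold higher in ST-HSC and 2 lower in MPP2 colonies, where 2.1% and 1.7% of all genes were. The median log2 differences were 0.16 in ST-HSC and 0.26 in MPP2 colonies. On 4OHT limma called 0 (7 at an unadjusted p under 0.05), edgeR 1 higher and 2 lower (281 and 211 of all 11370 genes), and DESeq2 0. Il6, the chief inducer of liver acute-phase genes, stood at 3.13, 1.65, 56.9 and 7.22 normalized counts (45 and 23 reads in ST-HSC colonies). It was thus lower with 4OHT in both cell types, where Saa3 and Hp were higher. The IL-6 receptor genes Il6st and Il6ra, and Socs3, named after their values were seen, were higher with 4OHT in both. Il6st, the gene edgeR called higher, had 30.8, 50.2, 11.8 and 22.8. Il6ra had 12.7, 18.8, 13.0 and 18.9, and Socs3 had 34.6, 55.0, 49.0 and 58.8. Of the 17 genes, 6 in ST-HSC and 4 in MPP2 colonies were below 0. The part of IL-6 signalling in Saa3 and Hp was not tested. IL-6 was also added to every culture. Osm, a cytokine of the IL-6 family, had 108, 91.3, 231 and 82.9. Il1r1, the IL-1 receptor, was the gene past 2-fold in ST-HSC colonies, at 2.36 and 6.11, and is named after its values were seen. Stat3, which carries the IL-6 signal, had 162 to 200, and the C/EBP family genes Cebpa and Cebpb had 143 to 210 and 218 to 293.

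**Figure D3:**
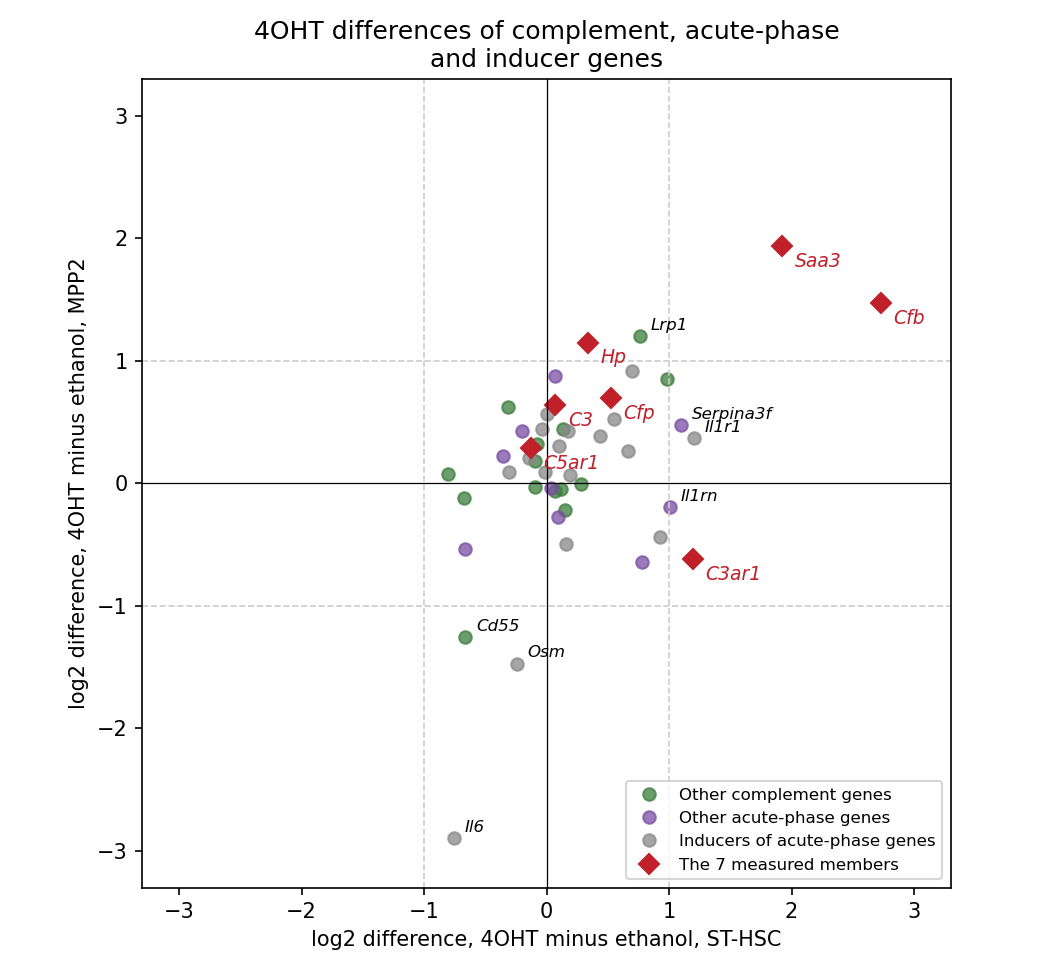
Log2 difference of 4OHT minus ethanol in ST-HSC (horizontal) and MPP2 colonies (vertical) for the 7 measured members (diamonds) and the tested genes of 3 lists (dots), after adding 0.5 to the normalized counts. Dashed lines mark 2-fold and non-members past it are named, with Il6 and Osm lowest in MPP2 colonies.

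For the 6 members whose mean level reached 10, the nearest genes in profile over the 4 libraries were sought among 8386 genes, as the Euclidean distance between centred log2 values. Nearest to C5ar1 were Ptger2 (0.07), Rasgrp4 (0.10) and the acute-phase gene Lcn2 (0.12). Nearest to Cfp were Tep1 (0.08), Tnfaip1 (0.11) and Bax (0.12), and nearest to Hp were Myo7a (0.15), Fcgr1 (0.18) and Jup (0.20). C3 had Nr4a1 at 0.12 and Tpcn2 at 0.14. Saa3 had no near match: Zmat3 came first at 0.51, with 10.5, 49.0, 13.0 and 52.7 normalized counts, followed by Ccnd1 at 0.52. C3ar1 lay nearest to Lat2 at 0.32. With 4 libraries such likeness is a description only.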

How the data were processed

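RNA-seq of 4 libraries was used, 1 for each combination of ST-HSC or MPP2 colonies with ethanol or 4OHT. Per the labels' protocols, 200 ng of total RNA was depleted of rRNA and made into strand-specific libraries with MGIEasy kits. Per the submitters' processing notes, the build was mm10 and the tools were RSEM, Bowtie2, edgeR and Trimmomatic 0.36. Neither the role of each tool nor the annotation is stated in the labels. The authors deposited a normalized signal per gene symbol, named normalized counts. Dividing each column by its smallest step gave whole reads for 100% of 57292 values, to a tolerance of 1e-06, and the deposited values equal reads over an effective library size under TMM factors of 1.00, 1.02, 1.01 and 0.966. No gene in the table had fewer than 4 reads summed over the libraries.

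The members and gene lists were chosen with earlier results of these data known. Genes whose mean reached 1 normalized count were tested on log2(value + 0.5), which shrinks differences of low genes. The shared effects of treatment and cell type came from limma 3.58.1 over all 11370 genes with Benjamini-Hochberg adjustment at 0.05. Each gene's variance was moderated toward a value from all genes, with 3.94 prior against 1 residual degree of freedom. The residual part is the gap between the 4OHT effects of both cell types. The p-values thus concern these 4 libraries only and measure no spread between replicates. Alternatives were added constants of 0.1 and 2, no filter or a mean of at least 5, DESeq2 size factors, total reads, limma with trend, edgeR 4.0.16 quasi-likelihood and DESeq2 1.42.0 on recovered reads, and, added after seeing the data, removal of the GC trend in 20 bins. Intervals are exact conditional binomial 95% intervals on reads, or log-normal for a ratio of ratios, and cover counting error alone, as does the floor of 3 reads per library (0.209 to 0.241 normalized counts).

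Named genes were every member; of each list the 3 most abundant genes and those with at least 10 normalized counts in the highest library and a 2-fold 4OHT difference; up to 3 genes per marker list; and up to 3 nearest genes in profile, skipping predicted and clone-named genes. The other marker lists (dendritic, mast and basophil, eosinophil, erythroid, megakaryocyte, stromal) had summed levels of 184, 270, 74.2 and 167 for dendritic, 149, 82.4, 1525 and 525 for mast and basophil, 36.8, 35.1, 271 and 144 for eosinophil, 21.6, 27.0, 462 and 436 for megakaryocyte and 84.8, 74.7, 167 and 119 for stromal genes. Coordinates, lengths and 31-base words come from GENCODE release M21 on GRCm38, the assembly of mm10, and promoters from RefSeq. Scripts ran in R 4.3.3 and in Python 3.11.15 with pandas 2.3.3, matplotlib 3.10.9, scipy 1.17.1 and numpy 2.4.6.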

Additional observations from a re-analysis of the deposited data

Results flagged for a closer look

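Some genes moved one way with 4OHT in ST-HSC colonies and the other way in MPP2 colonies, with counting intervals on opposite sides of 1. This held for 2 of 7 measured members, 4 of 14 other complement genes, 4 of 9 other acute-phase genes and 3 of 17 inducers, beside 5.36% of all genes (610 of 11370). Counting intervals are narrow for abundant genes, so small shifts meet this mark in them. With 1 library per group, none of these differences between cell types was tested.

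The values are the log2 4OHT difference in MPP2 minus that in ST-HSC colonies. C3ar1, higher in ST-HSC and lower in MPP2 colonies, had -1.81. C5ar1 was lower in ST-HSC and higher in MPP2 colonies, with 0.42. Among the other complement genes Clu had 0.94, Itgam 0.28, Itgb2 0.40 and Calr -0.13. Among the other acute-phase genes Il1rn had -1.20 and Lcn2 had 0.63. Serpina3g, named after its values were seen, had -1.42, from 36.9 to 63.6 normalized counts in ST-HSC and from 89.9 to 57.5 in MPP2 colonies. Of the inducers Cebpa had 0.35.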

How the results depend on the processing

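Depth limits C1qb, C1qc and Cfb, and 1 library per group leaves pairwise differences without a test. No paired analysis was possible because each group has 1 library and the labels carry no replicate numbers. Leaving out a library was not run as a test, since 3 libraries leave no residual degree of freedom. Counts of genes over the whole table depended on the added constant, the filter and the tool, and of 96 alternative counts 46 stayed within 1.5 times. Of 336 alternative values for members, 294 kept their call or, for pairwise differences, stayed within counting error. A change of filter cannot alter a gene's own pairwise difference, so those values were the same by design. A further 24 passed a threshold they had missed, 5 missed one they had passed, 13 moved beyond counting error and 0 reversed. The cause of these shifts was not tested.

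For the 4OHT difference in ST-HSC colonies (239 genes 2-fold higher, 62 lower), an added constant of 0.1 gave 108 lower, a constant of 2 gave 139 and 15, and a mean of at least 5 gave 125 and 30. In MPP2 colonies (150 and 193) a constant of 2 gave 76 and 109, and a mean of at least 5 gave 83 and 79. For MPP2 against ST-HSC in ethanol (713 and 98), a constant of 0.1 gave 149 lower, a constant of 2 gave 49 lower, and a mean of at least 5 gave 400 and 61. With 4OHT (613 and 194) a constant of 2 gave 387 and 89, and a mean of at least 5 gave 370 and 113.

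The shared 4OHT effect (5 called higher, 1 lower) gave 0 and 0 in limma with a constant of 0.1, with no filter, with DESeq2 size factors, with total reads and with the GC trend removed, where 1514, 1755, 1558, 1498 and 1302 genes had an unadjusted p under 0.05. It gave 180 and 48 with a constant of 2, 162 and 68 with a mean of at least 5, 337 and 261 by limma with trend, 281 and 211 by edgeR and 117 and 41 by DESeq2. The shared cell type effect (1123 and 604) gave 674 and 178 with a constant of 0.1, 1294 lower with a constant of 2, 490 and 69 with no filter, 1395 lower with a mean of at least 5, 394 lower with DESeq2 size factors, 1899 and 1862 by limma with trend, 1873 and 1589 by edgeR and 676 and 167 with the GC trend removed. Total reads shifted the median log2 difference of all genes by 0.02 for 4OHT in ST-HSC and -0.06 in MPP2 colonies, and by 0.01 and -0.08 for MPP2 against ST-HSC in ethanol and with 4OHT.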

Other observations

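Haptoglobin carries free haemoglobin to uptake receptors, and genes that handle the haem it releases were measured in the same colonies. Of 5 genes listed 4 had a row, and Cd163, the uptake receptor for haptoglobin bound to haemoglobin, had none. All 4 with a row were above 0 with 4OHT in both cell types (median log2 0.60 in ST-HSC and 0.38 in MPP2 colonies). In the shared test limma called 0 of them (2 at an unadjusted p under 0.05). EdgeR and DESeq2 called 2, Hmox1 and Lrp1, beside 281 and 117 of all 11370 genes called higher. Hmox1, which breaks down haem, stood at 70.2, 115, 122 and 168 normalized counts (ST-HSC colonies first, each cell type with ethanol and then 4OHT). Slc48a1, which moves haem out of lysosomes, stood at 189, 215, 163 and 201. Lrp1, through which haem bound to haemopexin is taken up, passed 2-fold in MPP2 colonies (ratio 2.31, 2.19 to 2.42). The summed level of 7 erythroid markers, mostly globin genes, was 0.556, 0.791, 137 and 7.94, beside 327, 413, 228 and 507 for Hp. Hp was lowest in the MPP2 ethanol library, where that sum was highest, but highest in the MPP2 4OHT library, where the sum was next highest. A tie between Hp and these markers was not tested.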
